A study of Arabidopsis thaliana and Lactuca sativa with 158 samples.

Results

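AGO1 (ARGONAUTE 1, AT1G48410) is 1 of the 86 Arabidopsis thaliana targets in the capture tables of this study, and it was chosen by its identifier alone. Its row was found in all 122 Arabidopsis libraries, 10 from inflorescences and 112 from leaves, of 158 libraries in the series. Transcripts of chosen loci were enriched with biotinylated probes and sequenced by nanopore, and the labels give the plants RUBY, a reporter that makes red betalain pigment. Loss of the red colour is how silencing of such a reporter is seen.

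AGO1 is the main slicer of post-transcriptional silencing in plants. The protein binds microRNAs and other small RNAs and cuts RNAs that pair with them, and its own mRNA is a textbook microRNA target, so that AGO1 limits its own expression. Dicer-like proteins make those small RNAs, DDM1 is a chromatin remodeller that keeps transposable elements silent, and RNA polymerases IV and V serve RNA-directed DNA methylation.

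The inflorescence libraries held immature buds of stages 1 to 12 from ddm1 plants (n = 3), polv plants (n = 3), a poliv polv double mutant (n = 1) and Col-0 plants (n = 3), all labelled as carrying 35S::RUBY, which could not be checked here for inflorescences. All leaves were taken at 4 weeks. A dcl1234 quadruple mutant with 35S::RUBY gave 8 always red libraries from 2 lines. Col-0 plants with a construct named RUBY_fs gave 6 always green libraries from 1 line, and those with RUBY_3Q, also 1 line, gave 3 always green, 2 fully green, 2 fully red and 3 always red libraries. Both constructs are labelled with the 35S promoter, and what the fs and 3Q versions change is not given in the labels. Col-0 plants with 35S::RUBY gave 13 libraries from green parts, 9 fully green, 2 always green, 13 from red parts, 13 fully red and 11 always red. ZmUBQ::RUBY in Col-0 gave 9 fully green, 9 fully red and 4 always red libraries, from 2 or 3 lines a group. The labels T1 (4 libraries) and Col-0 green (1 library) complete the leaf set. The T1 libraries are labelled with 35S::RUBY. They are of lines MK016_T1 (fully green and fully red), MK017_T1 (always green) and MK034_T1 (always red). The Col-0 green library is labelled with 35S::RUBY too, but its RUBY signal was 295.1, against at least 24649 in every other leaf library. It enters no comparison.

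Several libraries share a line, so p-values measure the spread between libraries, part of which may be technical. The sample names inside the leaf tables begin with a number that falls into 5 sets. All dcl1234 libraries are in set 3, all ZmUBQ libraries in set 4 and all RUBY_3Q, RUBY_fs and T1 libraries in set 5, while the 35S::RUBY groups in Col-0 are spread over sets 1 and 2. Of 8 tissue marker genes 1 is a target, so the tissue labels could not be checked. Values are deposited normalised read counts, called signal here. A leaf library held 2367 to 68614 AGO1 reads, and an inflorescence library, whose table is collapsed by molecular identifier, 990 to 3670. AGO1 took 0.334% to 4.41% of the summed signal of a leaf library and 1.54% to 3.97% of that of an inflorescence library. Levels are not compared between the tissues.

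In inflorescences AGO1 signal was highest in ddm1. The 3 ddm1 libraries had 2867, 2897 and 2821, the 3 polv libraries 1050, 1762 and 1045, and the 3 Col-0 libraries 1992, 912.3 and 2321. All ddm1 libraries lay above all others, and the poliv polv library, with 2062, lay inside the Col-0 range. The means were 2862 ± 38.7 in ddm1, 1286 ± 413 in polv and 1742 ± 737 in Col-0 (SD, n = 3 each). Col-0 replicate 2 was low also for the other protein-coding targets, whose summed signal was 13552 there and 35522 and 35871 in the other Col-0 libraries. The part of that library in the results was tested only by leaving it out.

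AGO1 rose in ddm1 against polv by 1.20 on the log2 scale (SE 0.25, limma, adjusted p = 0.00670). In that comparison 53.8% of 65 tested targets changed, and the other targets had a median change of 1.09. The direction depended on scaling. Centred on the other protein-coding targets, AGO1 was 0.69 higher in ddm1 than in polv (limma, adjusted p = 0.0199), but centred on the median of all targets of a library it differed by -1.10 (adjusted p = 0.00156). An exact permutation test of 3 against 3 cannot go below 0.1, the value it gave.

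Against Col-0, ddm1 differed by 0.82 on the log2 scale (SE 0.54, limma, adjusted p = 0.440, 26.2% of 65 targets called), and without Col-0 replicate 2 by 0.41 (adjusted p = 0.128). The centred values were 0.70 against the other protein-coding targets (adjusted p = 0.0108) and -1.12 against the library median (adjusted p = 0.0170), again of opposite sign. The polv libraries differed from Col-0 by -0.37 (SE 0.62, limma, adjusted p = 0.725, 27.1% of 59 targets called), and without Col-0 replicate 2 by -0.79 (adjusted p = 0.0402).

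**Figure D1:**
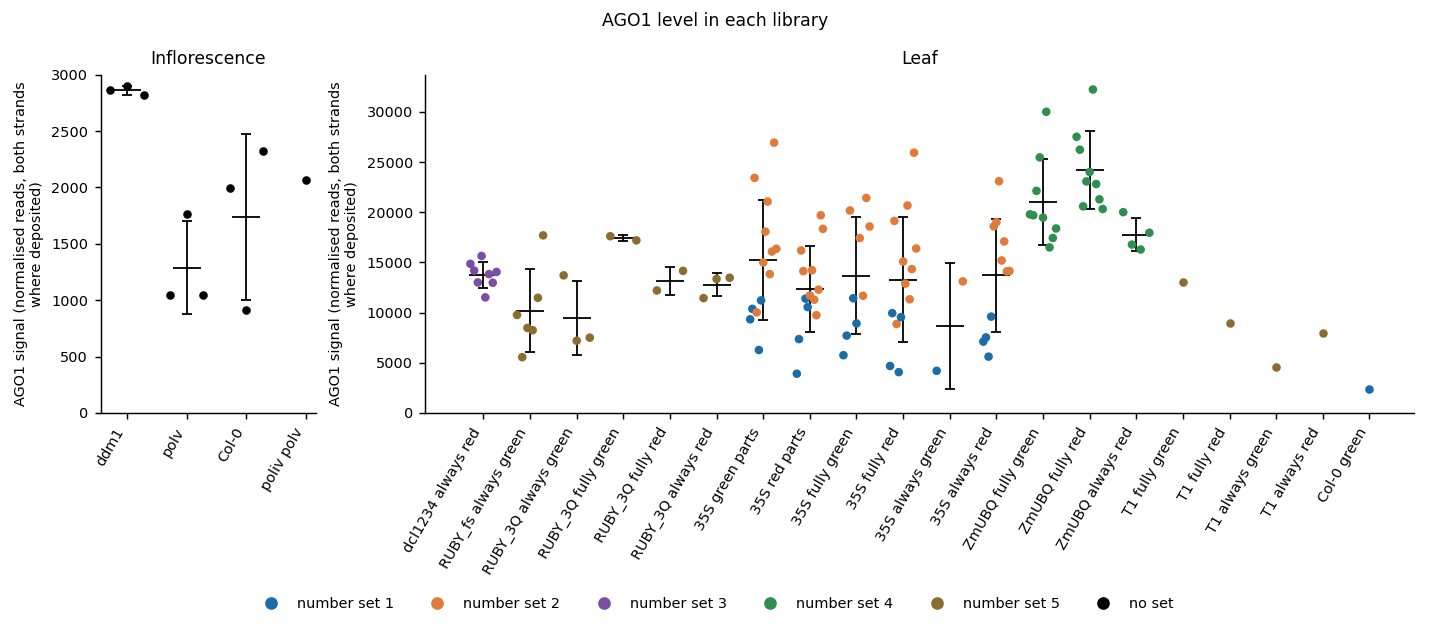
AGO1 signal (normalised reads, vertical axis, linear) in each library, inflorescence and leaf groups in separate panels. Points are libraries, coloured by number set in leaves, and dashes with bars are the mean ± SD. The 3 ddm1 libraries lie at 2821 to 2897, above the other inflorescence libraries.

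In leaves AGO1 signal ran from 2413 in the Col-0 green library to 32227 in a ZmUBQ fully red library. The ZmUBQ groups stood highest, with 24228 ± 3863 in fully red (n = 9), 20985 ± 4299 in fully green (n = 9) and 17756 ± 1656 in always red leaves (SD, n = 4). Next came RUBY_3Q fully green with 17402 ± 291 (n = 2), 35S green parts with 15228 ± 6001 (n = 13) and dcl1234 always red with 13758 ± 1268 (n = 8). In the middle lay 35S always red with 13733 ± 5641 (n = 11), 35S fully green with 13677 ± 5815 (n = 9) and 35S fully red with 13296 ± 6261 (n = 13). These 3 groups were closer to each other than the spread within any of them. Lower means were found in RUBY_3Q fully red, 13180 ± 1382 (n = 2), RUBY_3Q always red, 12757 ± 1139 (n = 3), and 35S red parts, 12369 ± 4281 (n = 13). The lowest were RUBY_fs always green, 10200 ± 4156 (n = 6), RUBY_3Q always green, 9469 ± 3676 (n = 3), and 35S always green, 8652 ± 6302 (n = 2). No neighbours in this order differed by more than the larger of their SDs. RUBY_3Q and RUBY_fs values hold the sense strand only.

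The spread inside the 35S groups went with the number sets. The 40 libraries of set 2 averaged 16415 ± 4335 and the 21 of set 1 averaged 7928 ± 2549 (SD), a ratio of 2.07. The summed signal of the other protein-coding targets had a ratio of 2.61.

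AGO1 level passed the threshold in none of the comparisons of green with red tissue, whereas RUBY fell in 3 of them. In 35S green parts AGO1 had 6270 at the lowest, 14993 at the median and 26934 at the highest, and in red parts 3912, 11706 and 19695. The ranges overlap, and the difference was 0.29 on the log2 scale (95% interval -0.23 to 0.81, limma, adjusted p = 0.711, 1.75% of 57 targets called). Fully green leaves had 5752, 11675 and 21423, and fully red leaves 4066, 12888 and 25933, a difference of 0.083 (interval -0.60 to 0.77, limma, adjusted p = 0.949, 1.67% of 60 called). RUBY fell by 1.33 in green parts (limma, adjusted p = 1.99e-05) and by 1.56 in fully green leaves (adjusted p = 0.000207).

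Under ZmUBQ, fully green leaves had 16497 at the lowest, 19694 at the median and 30011 at the highest, and fully red leaves 20322, 23068 and 32227. AGO1 differed by -0.22 (95% interval -0.47 to 0.04, limma, adjusted p = 0.308, 1.96% of 51 called), and RUBY fell by 2.24 (adjusted p = 3.93e-10). The 2 always green 35S libraries, both of line MK017, had 4196 and 13108, and differed from always red leaves by -0.76 (SE 0.51, limma, adjusted p = 0.297, 4.17% of 72 called). That value rested on single libraries, being 0.063 without the lower one and -1.58 without the higher one. With number set as a term in the fit it was -0.58 and passed (limma, adjusted p = 0.0495). That fit called 25 of 72 targets lower and 3 higher, and the other targets had a median change of -0.87. The single always green library of set 1 differed by -0.80 and that of set 2 by -0.38. In these last 2 fits the lone library is assumed to vary like the always red ones.

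Other colour pairs stayed short of the threshold as well. Fully red differed from always red leaves by -0.090 under 35S (95% interval -0.71 to 0.52, limma, adjusted p = 0.866). Under ZmUBQ the difference was 0.44 (interval 0.11 to 0.77, limma, adjusted p = 0.246), and all 9 fully red libraries lay above the 4 always red ones, which had 20006, 16777, 16283 and 17956. Green parts differed from fully green leaves by 0.18 (interval -0.45 to 0.81, adjusted p = 0.995) and red parts from fully red leaves by -0.031 (interval -0.61 to 0.55, adjusted p = 0.991). In these 4 comparisons limma called 0 targets, with 3, 7, 0 and 0 at an unadjusted p below 0.05. Within number sets the 35S differences kept short of the threshold too. Green against red parts gave 0.24 in set 1 and 0.31 in set 2, and fully green against fully red leaves 0.33 in set 1 and 0.19 in set 2. Fully red against always red leaves gave -0.17 in set 1 and -0.15 in set 2. Green parts against fully green leaves gave 0.15 in set 1 and -0.024 in set 2, and red parts against fully red leaves 0.23 in set 1 and -0.15 in set 2.

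In dcl1234, labelled as a mutant of 4 Dicer-like genes, no change of AGO1 level was detected. DCL4 is the only one of them among the targets, and its signal averaged 4490 ± 1291 in dcl1234 and 3462 ± 1494 in Col-0 (SD, log2 difference 0.48, limma, adjusted p = 0.153). Which stretch of DCL4 the probes and the allele cover is not given in the sources used here, so this level does not check the label. The 8 dcl1234 libraries had 11516 at the lowest, 13939 at the median and 15641 at the highest, and the 11 Col-0 always red libraries 5612, 14141 and 23091. The dcl1234 range lay inside that of Col-0, and the difference was 0.13 on the log2 scale (95% interval -0.36 to 0.61, limma, adjusted p = 0.662), while 48.3% of 60 targets changed. In tables of full-length collapsed reads the difference was 2.22 (adjusted p = 0.00370), from 6 to 31 AGO1 reads a library in dcl1234 and 1 to 41 in the 7 Col-0 libraries that list the gene. The other 4 Col-0 libraries entered there as 0. In those tables limma called 28 of 36 targets higher and 5 lower, and the other targets had a median change of 1.61.

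AGO1 was lower under 35S than under ZmUBQ on the deposited scale in fully red leaves. It fell by 1.02 on the log2 scale (SE 0.28, limma, adjusted p = 0.00793, 20.7% of 58 targets called), and the other targets had a median of -0.56. Centring on the library median gave -0.084 and centring on the other protein-coding targets 0.26, neither past the threshold. With 1 mean per line the difference was -0.90 and did not pass (limma, adjusted p = 0.267). In fully green leaves the difference was -0.72 (SE 0.26, limma, adjusted p = 0.0503, 12.7% of 55 called), past the threshold without any 1 of 4 fully green 35S libraries, from lines MK016, MK042, MK044 and MK045 (-0.78 to -0.82). It was -0.50 in always red leaves (SE 0.32, limma, adjusted p = 0.376, 18% of 61 called). There, centring on the library median gave 0.047, and centring on the other protein-coding targets gave 0.61, a call in the opposite direction (limma, adjusted p = 0.0328). That last centring called 25 of 61 targets higher and 3 lower, and the other targets had a median change of 0.89. Promoter and number set cannot be told apart.

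The altered constructs gave no called difference in AGO1 level. RUBY_fs always green leaves had 5556 at the lowest, 9116 at the median and 17694 at the highest, and RUBY_3Q always green leaves 13710, 7196 and 7502, a difference of 0.082 (SE 0.43, limma, adjusted p = 0.974). Against 35S fully green leaves RUBY_fs differed by -0.38 (SE 0.40, limma, adjusted p = 0.605, 15.7% of 51 called). RUBY_3Q always green differed by -0.49 from RUBY_3Q always red leaves (SE 0.47, adjusted p = 0.567), which had 11444, 13356 and 13472. RUBY_3Q always red differed by 0.024 from 35S always red leaves (SE 0.38, limma, adjusted p = 0.983, 7.02% of 57 called). RUBY_3Q fully green libraries had 17608 and 17196, and fully red ones 12203 and 14158, a difference of 0.40 without overlap (SE 0.32, limma, adjusted p = 0.397). In the 3 comparisons within set 5 limma called 0 targets, with 3 between RUBY_fs and RUBY_3Q always green, 4 between RUBY_3Q always green and always red, and 5 between RUBY_3Q fully green and fully red at an unadjusted p below 0.05.

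A second measure was the share of AGO1 sense signal in reads that the tables mark pA, a mark whose definition is not given in the sources used here. It is a ratio within a library, so scaling between libraries does not enter it. The share was 7.29% to 45.6% in leaves, with a median of 24.5%, and 22.3% to 39.4% in inflorescences. The other protein-coding targets, pooled, had 34.4% to 65.9% in leaves and 55.9% to 68.8% in inflorescences. AGO1 lay below them in 112 of 112 leaf and 10 of 10 inflorescence libraries. Counted from the lowest share, AGO1 held place 7 at the median among 17 to 22 protein-coding targets in leaves and place 4 among 13 in inflorescences.

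Other silencing genes among the targets gave a frame for that value. In 35S always red leaves AGO1 had 31.5% ± 6.66. DCL4, a Dicer-like enzyme of secondary small RNAs, had 9.61% ± 5.46, AGO4, an Argonaute of RNA-directed DNA methylation, 17.0% ± 8.41, and the RNA helicase SDE3 17.6% ± 11.36. RDR6, which copies RNA into double strands, had 20.1% ± 14.7, and NRPD1B, the largest subunit of polymerase V, 22.1% ± 16.4. SGS3, which works with RDR6, had 51.0% ± 17.4, and TAS3, a precursor of trans-acting small RNAs, 62.2% ± 12.8 (SD, n = 11 each).

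**Figure D2:**
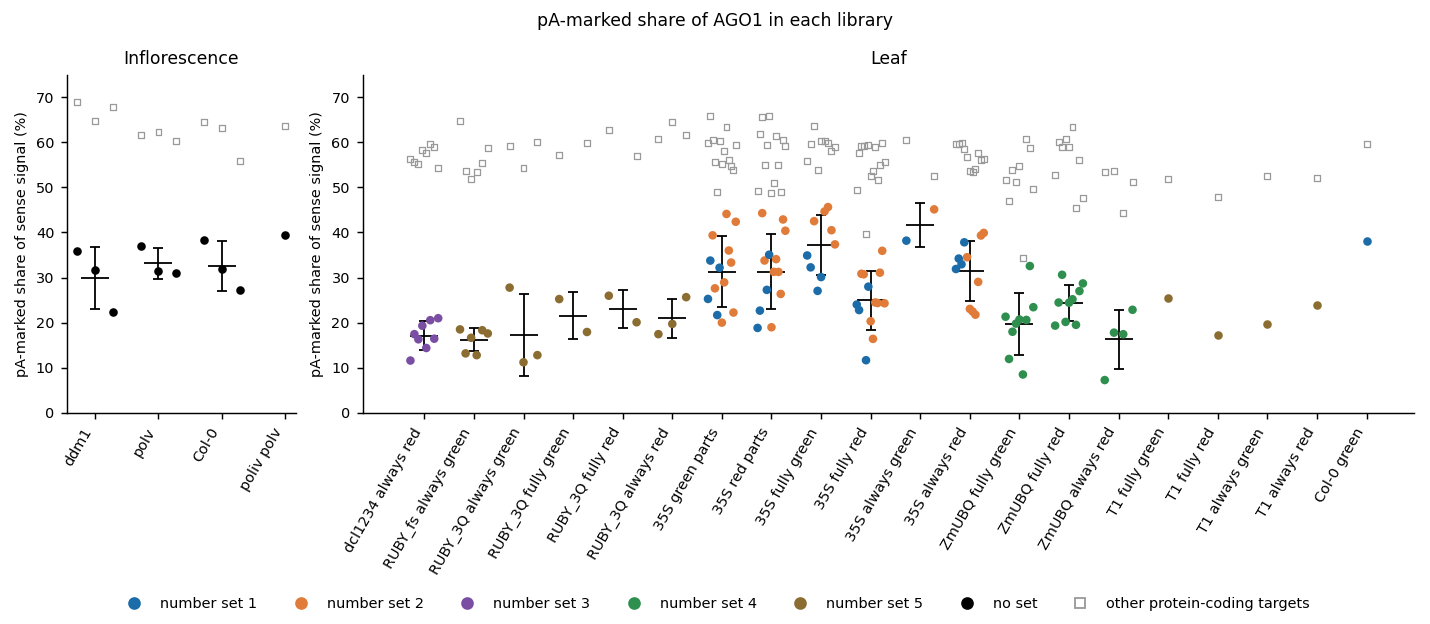
Share of AGO1 sense signal in pA-marked reads (%, vertical axis) in each library, inflorescence and leaf groups in separate panels. Points are libraries, coloured by number set in leaves, dashes with bars the mean ± SD, and grey squares the pooled share of the other protein-coding targets. AGO1 lies below that pooled share throughout, and dcl1234 does not overlap 35S always red.

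The pA share of AGO1 fell in dcl1234. The 8 dcl1234 libraries had 11.6% at the lowest, 17.0% at the median and 21.0% at the highest, and the 11 Col-0 always red libraries 21.8%, 32.9% and 39.9%. The groups did not overlap. Means were 17.1% ± 3.18 in dcl1234 and 31.5% ± 6.66 in Col-0 (SD), a difference of -14.4 percentage points (exact permutation test, two-sided, p = 0.000106, adjusted over 20 comparisons p = 0.00133). With 1 mean per line it was -14.8 points (exact permutation test, p = 0.0357, adjusted p = 0.0893), where p is the smallest that 2 lines against 6 allow, so the line means could not pass after adjustment. Genotype and number set 3 cannot be told apart.

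AGO1 moved against most called targets there. Of 37 targets with at least 20 sense reads, 43.2% changed in pA share, 37.8% higher and 5.41% lower. The 2 lower ones were AGO1 and RUBY, which had 56.6% ± 3.34 in dcl1234 and 76.4% ± 3.18 in Col-0 (SD). The other targets had a median change of 8.13 points. TAS3 rose, with 83.8% ± 2.21 in dcl1234 and 62.2% ± 12.8 in Col-0 (exact permutation test, adjusted over targets p = 0.00147), and so did SDE3, with 36.2% ± 10.3 and 17.6% ± 11.36 (adjusted p = 0.00731). AGO4, DCL4, RDR6, SGS3 and NRPD1B did not pass. The pooled share of the other protein-coding targets was 57.0% ± 1.90 in dcl1234 and 56.8% ± 2.44 in Col-0, and relative to it AGO1 differed by -14.6 points (exact permutation test, adjusted p = 0.000265). The pA-marked signal of AGO1 averaged 2358 ± 536 in dcl1234 and 4153 ± 1534 in Col-0, and the unmarked signal 11351 ± 1034 in dcl1234 and 9555 ± 4552 in Col-0 (SD).

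**Figure D3:**
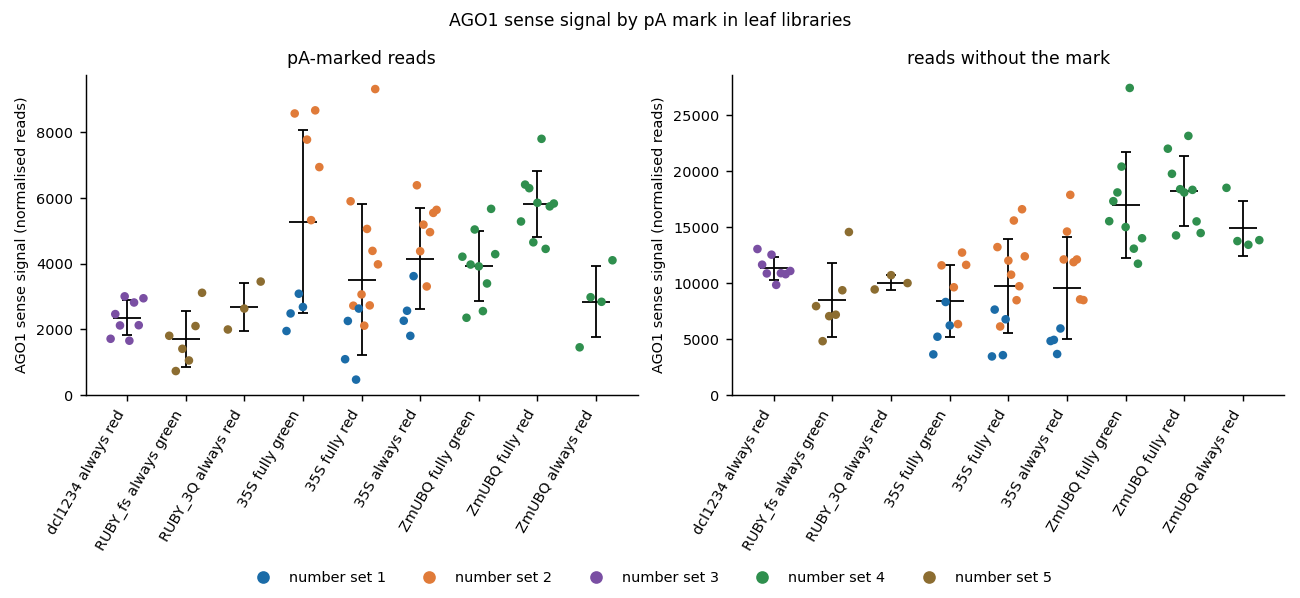
AGO1 sense signal (normalised reads, vertical axes, linear) in pA-marked and in unmarked reads for 9 leaf groups. Points are libraries, coloured by number set, and dashes with bars the mean ± SD. In dcl1234 the marked signal averages 2358, against 4153 in 35S always red, and the unmarked signal 11351, against 9555.

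Fully green 35S leaves had a higher pA share of AGO1 than fully red ones. The 9 fully green libraries had 27.1% at the lowest, 37.4% at the median and 45.6% at the highest, and the 13 fully red ones 11.7%, 24.4% and 35.9%. The ranges overlapped in part. Means were 37.2% ± 6.60 in the fully green and 25.0% ± 6.53 in the fully red class (SD), a rise of 12.2 points (exact permutation test, two-sided, p = 0.000362, adjusted p = 0.00181). Of 35 targets, 8.57% had a higher and 2.86% a lower share. Relative to the other protein-coding targets, which had 58.9% ± 2.79 in the fully green and 54.7% ± 5.63 in the fully red class, the rise was 8.05 points (exact permutation test, adjusted p = 0.00685).

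The rise was seen in both number sets. In set 2 the 5 fully green libraries had 37.4% to 45.6% and the 9 fully red ones 16.4% to 35.9%, 15.6 points apart with no overlap (exact permutation test, p = 0.000999). In set 1 the 4 fully green libraries had 27.1% to 34.9% and the 4 fully red ones 11.7% to 28.0%, 9.46 points apart (exact permutation test, p = 0.0571, adjusted p = 0.127). RUBY changed the other way, with 34.1% ± 9.83 in the fully green and 71.8% ± 5.82 in the fully red class (SD, exact permutation test, adjusted over targets p = 7.04e-05).

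**Figure D4:**
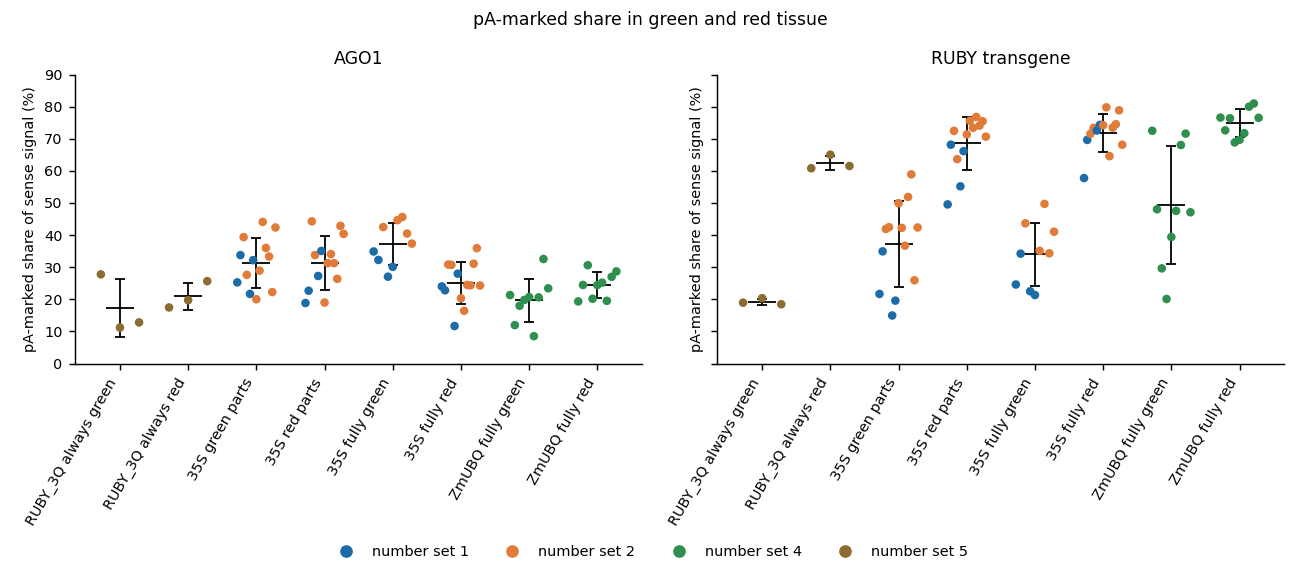
Share of sense signal in pA-marked reads (%, vertical axes) for AGO1 and for the RUBY transgene in green and red leaf classes of 3 constructs. Points are libraries, coloured by number set, and dashes with bars the mean ± SD. In 35S leaves AGO1 averages 37.2% in fully green and 25.0% in fully red, and RUBY 34.1% in fully green and 71.8% in fully red.

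Between green and red parts no such difference was detected for AGO1. Green parts had 31.3% ± 7.86 and red parts 31.3% ± 8.34 (SD, n = 13 each), -0.0203 points apart (permutation test, p = 0.995), with 2.86% of 35 targets called. The called target was RUBY, with 37.2% ± 13.3 in green and 68.7% ± 8.25 in red parts. Fully red leaves differed from always red ones by -6.54 points (permutation test, adjusted p = 0.0620), red parts from fully red leaves by 6.32 points (adjusted p = 0.0924), and green parts from fully green leaves by -5.92 points (exact permutation test, adjusted p = 0.145). The 2 always green libraries had 38.2% and 45.1%, 10.1 points above always red leaves on average (exact permutation test, adjusted p = 0.145). In these last 4 comparisons 0 targets passed the permutation test, with 2 in each at an unadjusted p below 0.05. With same-numbered libraries of a line paired, red parts against fully red leaves passed for AGO1 (exact sign-flip test of pair differences, adjusted p = 0.0423). Whether such libraries share a plant is not given in the labels. The difference of fully red from always red leaves passed when 1 of 4 libraries was left out, with -7.46 points without fully red library 3 of line MK044 and -7.39 to -7.52 without library 1 or 2 of line MK042 or library 1 of line MK044 of the always red class. Within set 1 it was -12.6 points without overlap, 11.7% to 28.0% in fully red against 31.9% to 37.8% in always red leaves (exact permutation test, p = 0.0286, the smallest that 4 against 4 allows, adjusted p = 0.0714). Within set 2 it was -3.52 points (exact permutation test, adjusted p = 0.545). Green against red parts gave 2.26 points in set 1 and -1.03 in set 2, red parts against fully red leaves 4.34 in set 1 and 7.20 in set 2, and green parts against fully green leaves -2.85 in set 1 and -9.46 in set 2, none past the threshold after adjustment. The 1 always green library of each set was 3.96 points above the always red mean in set 1 and 15.1 in set 2, and tests of 1 library could not pass (exact permutation test, p = 0.2 and 0.125, the smallest possible).

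Under ZmUBQ fully green and fully red leaves differed with the opposite sign, short of the threshold. Fully green libraries had 8.52% at the lowest, 20.6% at the median and 32.6% at the highest, and fully red ones 19.4%, 24.5% and 30.6%, a difference of -4.73 points (exact permutation test, adjusted p = 0.156, 5.56% of 36 targets called). Without fully green library 5 of line MK056 it was -6.34 points (adjusted p = 0.0329), and relative to the other protein-coding targets -0.0496 points (exact permutation test, adjusted p = 1). Fully red leaves were 8.04 points above always red ones (exact permutation test, adjusted p = 0.0606), where 0 of 36 targets passed and 9 had an unadjusted p below 0.05. That difference passed without fully red library 3 of line MK054 (8.67), 2 of MK055 (8.56) or 3 of MK056 (8.65), or without always red library 4 of MK056 (10.2). Relative to the other protein-coding targets it was 2.66 points (exact permutation test, adjusted p = 0.787). The difference between fully green and fully red leaves was itself unequal between promoters, by 17.0 points (promoter labels permuted within colour, p = 0.00210, adjusted over 6 tests p = 0.0126). That between fully red and always red leaves was unequal by -14.6 points (same permutation test, p = 0.0112, adjusted p = 0.0336). Relative to the other protein-coding targets neither inequality passed, with 8.10 points between promoters for fully green against fully red (permutation test, adjusted p = 0.288) and -7.12 points for fully red against always red (adjusted p = 0.467).

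The promoters differed in pA share in the green and always red classes. In fully green leaves AGO1 had 37.2% ± 6.60 under 35S and 19.7% ± 6.81 under ZmUBQ (SD, n = 9 each), 17.6 points apart (exact permutation test, adjusted p = 0.00133). There 48.6% of 35 targets changed, 45.7% higher and 2.86% lower under 35S. In always red leaves AGO1 had 31.5% ± 6.66 under 35S (n = 11), and the 4 ZmUBQ libraries had 7.29%, 17.8%, 17.5% and 22.9%, 15.2 points apart on average (exact permutation test, adjusted p = 0.00879, 10.8% of 37 targets called). In fully red leaves the shares were 25.0% ± 6.53 under 35S and 24.4% ± 4.06 under ZmUBQ, 0.609 points apart (exact permutation test, adjusted p = 0.899), with 0 of 34 targets called and 5 at an unadjusted p below 0.05. The other protein-coding targets were also higher under 35S, with 58.9% ± 2.79 against 51.3% ± 7.66 in fully green and 56.8% ± 2.44 against 50.6% ± 4.27 in always red leaves. Relative to them AGO1 was 10.0 points higher in fully green leaves (exact permutation test, adjusted p = 0.00761) and 9.01 points higher in always red leaves, which did not pass (adjusted p = 0.103). Promoter and number set cannot be told apart in any of these.

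RUBY_fs always green leaves had the lowest mean share, close to that of ZmUBQ always red leaves. The 6 libraries had 12.8% at the lowest, 17.1% at the median and 18.5% at the highest, below all 35S fully green libraries. The difference was -21.0 points (exact permutation test, p = 0.0002, the smallest these groups allow, adjusted p = 0.00133), and of 35 targets 31.4% changed, 25.7% lower and 5.71% higher. AGO4 fell too, with 4.49% ± 4.59 in RUBY_fs and 13.7% ± 3.99 in 35S fully green leaves, and RDR6, with 8.75% ± 4.73 and 27.2% ± 9.59 (SD, exact permutation test, adjusted over targets p = 0.0140 and 0.0150). So did RUBY, with 16.7% ± 3.95 and 34.1% ± 9.83 (same test, adjusted p = 0.0150). SDE3, DCL4, SGS3, NRPD1B and TAS3 did not pass. With 1 line in RUBY_fs, line means gave -22.7 points (exact permutation test, p = 0.143, the smallest that 1 line against 6 allows), and construct, line and number set cannot be told apart.

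Within set 5 the ranges of the groups compared overlapped. RUBY_fs had 16.2% ± 2.55 and RUBY_3Q always green libraries 27.8%, 11.2% and 12.8%, a difference of -1.09 points (exact permutation test, adjusted p = 0.899). RUBY_3Q always red libraries had 17.5%, 19.7% and 25.7%, from which always green leaves differed by -3.68 points (exact permutation test, adjusted p = 0.800). That value ran from -8.93 points without the always green library at 27.8% to -0.657 points without the one at 11.2%. RUBY_3Q fully green libraries had 25.2% and 17.9% and fully red ones 26.0% and 20.1%, where the smallest possible p is 0.333. In these 3 comparisons 0 targets passed the permutation test. Between RUBY_3Q always green and always red leaves the smallest possible p is 0.1. In that pair and in the fully green and fully red pair no target could therefore pass. Between RUBY_fs and RUBY_3Q always green leaves 2 of 35 targets had an unadjusted p below 0.05. RUBY_3Q always red differed from 35S always red leaves by -10.6 points (exact permutation test, adjusted p = 0.0620, 11.1% of 36 targets called, 5.56% in each direction), and by -16.0 points relative to the other protein-coding targets (adjusted p = 0.0110). The unscaled difference passed without RUBY_3Q library 5 (-12.9) or without library 1 of line MK044 (-11.6). With 1 line in RUBY_3Q and 6 in 35S always red leaves, line means gave -10.6 points. Construct, line and number set cannot be told apart there.

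**Figure D5:**
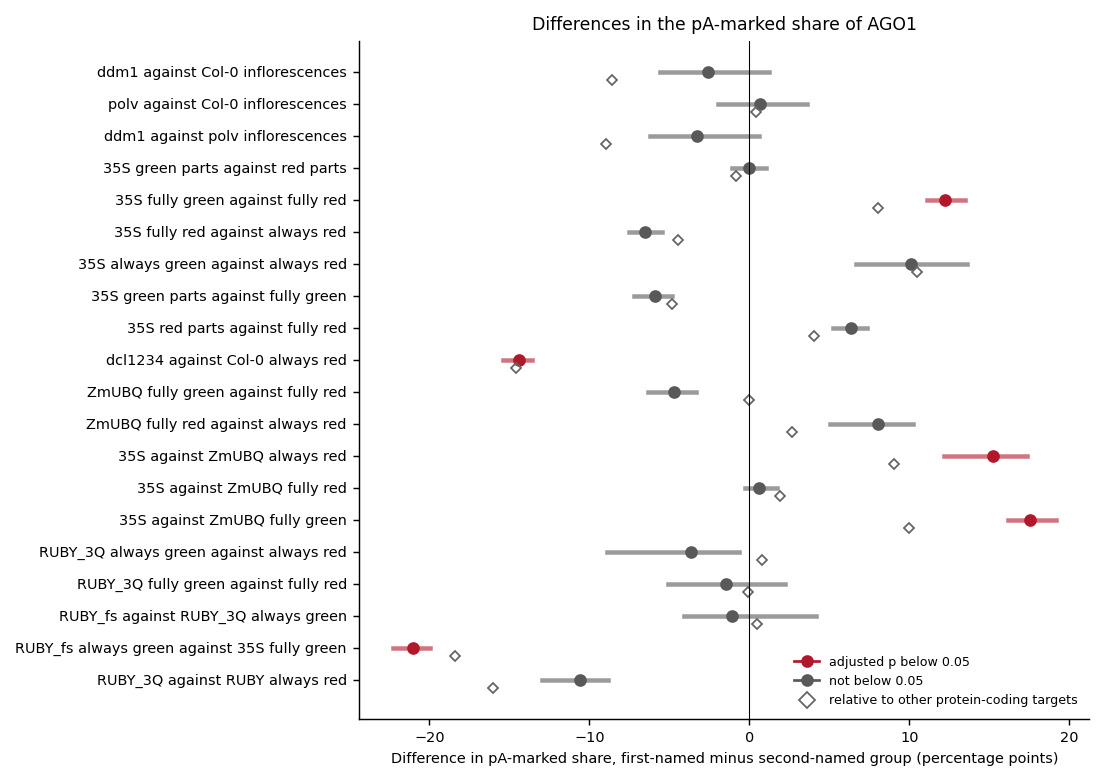
Difference in the pA-marked share of AGO1 (percentage points, horizontal axis) in the 20 comparisons, first-named minus second-named group. Dots are differences, lines the range when each library is left out in turn, red marks an adjusted p below 0.05, and diamonds are differences relative to the other protein-coding targets. Of 5 red dots, those of dcl1234 (-14.4) and RUBY_fs against 35S fully green (-21.0) lie below 0.

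In inflorescences the pA shares of the genotypes overlapped. The ddm1 libraries had 35.9%, 31.6% and 22.3%, the polv libraries 37.1%, 31.5% and 30.9%, and the Col-0 libraries 38.3%, 31.9% and 27.3%. Differences from Col-0 were -2.59 points in ddm1 and 0.661 points in polv (exact permutation test, p = 0.6 and 1, where 0.1 is the smallest possible), and 0 targets passed, at an adjusted or an unadjusted p. Relative to the other protein-coding targets ddm1 did not overlap with the others, at -37.2 ± 7.23 points in ddm1, -28.2 ± 3.32 in polv and -28.7 ± 2.60 in Col-0 (SD, n = 3 each). The differences were -8.56 points from Col-0 and -8.98 points from polv, each at the smallest possible p (exact permutation test, p = 0.1, adjusted p = 0.167), so these tests could not pass.

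Antisense AGO1 signal was scarce. It made up 0% to 3.90% of AGO1 signal in the 92 leaf libraries with both strands, with a median of 0.104%, where the other protein-coding targets had a median of 2.24%. In 19 of 102 libraries 0 antisense reads were found, which allows a share of up to 0.0196% to 0.127% (3 reads of the total, counting error only). The ddm1 libraries had 0.518%, 0.971% and 0.342%, the polv libraries 1.45%, 0.395% and 0.934%, and the Col-0 libraries 0.640%, 0.130% and 0.101%. Of 15 comparisons 0 passed the permutation test, raw or adjusted, with adjusted p of at least 0.894. Between the inflorescence genotypes the smallest possible p is 0.1, so those comparisons could not pass. In 35S leaves set 2 averaged 0.256% and set 1 0.927%.

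Of 27 small RNA pathway genes listed, 8 are targets, AGO1 among them. In ddm1 against polv 2 of the 5 others tested rose in level, AGO4 by 0.78 (limma, adjusted p = 0.0122) and AGO6, which acts in the same methylation pathway, by 1.48 (adjusted p = 0.00728), where 44.6% of 65 targets rose. The list had a median of 0.78, against 1.09 over all other targets. In dcl1234 1 of 7 rose, AGO4 by 0.61 (limma, adjusted p = 0.0194), where 30% of 60 targets rose, with a list median of 0.44 against 0.38 over all other targets. In fully red leaves under 35S against ZmUBQ 2 of 7 fell, DCL4 by 1.15 (limma, adjusted p = 0.0129) and RDR6 by 1.03 (adjusted p = 0.0247), where 17.2% of 58 targets fell. The list had a median of -1.03, against -0.56 over all other targets. DCL4 fell by 1.08 in always red leaves of that contrast (limma, adjusted p = 0.0433), where 13.1% of 61 targets fell. There the list had a median of -0.47, against -0.22 over all other targets. AGO4 fell by 1.60 in 35S always green against always red leaves (limma, adjusted p = 0.0369, 2.78% of 72 targets lower). The list median was -1.46 in that comparison, against -1.02 over all other targets, and the 2 always green libraries are of 1 line. NRPD1B fell by 2.41 in RUBY_fs against 35S fully green leaves (limma, adjusted p = 0.0407, 13.7% of 51 targets lower). Here the list median was -0.74, against -0.54 over all other targets. In the other 14 comparisons 0 of these members passed limma. Of 5 listed trans-acting small RNA precursors 1 is a target, TAS3, which fell by 1.30 in RUBY_fs against 35S fully green leaves (limma, adjusted p = 0.0410). TAS3 also fell by 1.97 in RUBY_3Q against 35S always red leaves (limma, adjusted p = 0.000708, 3 of 57 targets lower). Over the other targets the median change there was -0.13. The RUBY_fs and RUBY_3Q libraries are of 1 line each, all in set 5.

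Over the 112 leaf libraries the target whose centred log2 signal was most like that of AGO1 was AT5G59950, a protein-coding gene (Spearman rho 0.60). AT2G10410 followed with 0.47, SUR1 with 0.35, DCL4 with 0.31 and LBD41 with 0.31, among 42 targets with a median of 0.11. These libraries share lines and number sets. For AT5G59950 rho was 0.72 in set 1, 0.43 in set 2 and 0.47 in set 4, whereas for LBD41 it was 0.60, 0.17 and -0.26.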

How the data were processed

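AGO1 was read from tables of 10 inflorescence and 112 leaf libraries; lettuce libraries were not used. Per the labels' protocols, TRIzol RNA received a 3' adapter, was reverse transcribed with template switching, barcoded, enriched with probes and sequenced by nanopore. The submitters' processing notes name TAIR10 and cutadapt. The signal is normalised counts deposited by the authors, split by strand and pA mark, with a factor not given in the sources used here; for 20 leaf libraries only the sense strand was used. In those the authors also deposited the percent of sense signal marked pA, per the file headers; the same ratio was computed here for all libraries. Sense values were whole multiples of 1 step in 122 of 122 libraries, within 0.02 reads beyond rounding, which gave read numbers. limma 3.58.1 (R 4.3.3) was fitted to log2(signal + 1) of the 2 groups compared, with a mean trend and Benjamini-Hochberg adjustment over targets above 0 in as many libraries as the smaller group has; this scale understates changes of low targets. Shares were tested by two-sided permutation of mean differences, exact or with 100000 resamples where both groups hold 10 or more libraries, adjusted over 20 comparisons (15 for antisense). The scripts were tested on simulated data. Alternatives were other pseudocounts (0.1, 10), no filter, 2 centrings, other tables, replicate blocks, line means, number sets and left-out libraries. Named are AGO1, RUBY beside it, the pathway members among the targets, TAS3 and the 5 targets most like AGO1. Members and lists were chosen with earlier results of these data known.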

Additional observations from a re-analysis of the deposited data

Results flagged for a closer look

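In pA share, the difference between fully green and fully red leaves was unequal between promoters by 17.0 percentage points (12.2 under 35S and -4.73 under ZmUBQ). The difference between fully red and always red leaves was unequal by -14.6 points (-6.54 under 35S and 8.04 under ZmUBQ). Both were picked out by a permutation test of the difference itself, and promoter and number set cannot be told apart. Relative to the other protein-coding targets neither passed, at 8.10 points (8.05 under 35S and -0.0496 under ZmUBQ, permutation test, adjusted p = 0.288) and -7.12 points (-4.46 under 35S and 2.66 under ZmUBQ, adjusted p = 0.467).

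In antisense share, 1 library stood far from the rest of its group in 3 of the groups screened. A 35S fully green library of line MK016 had 2.75%, where the group's median was 0.0462%. A ZmUBQ fully red library of line MK056 had 3.90%, where the median was 0.0690%, and a ZmUBQ fully green library of line MK055 had 2.69%, where the median was 0.0808%. Chance picks out about 1 in 20 of such sets where values follow a normal curve. The antisense shares are skewed, so that rate need not hold for them. The 17 sets looked at held signal, pA share and antisense share together. The 35S green parts, red parts, fully red and always red groups were not screened.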

How the results depend on the processing

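No call or sign of AGO1 level changed with a pseudocount of 0.1 or 10 or without the filter, in 20 comparisons each; the causes of the changes given here were not tested. Signal spread and the unstated scaling factor limit the level results, and lines and number sets limit the shares.

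Centring on the library median turned the level difference to -1.12 in ddm1 and 0.018 in polv against Col-0, -1.10 in ddm1 against polv, -0.062 in 35S green against red parts, -0.36 in fully green against fully red, 0.22 in fully red against always red, 0.34 in always green against always red, -0.0016 in green parts against fully green, -0.095 in dcl1234 against Col-0 and 0.047 in 35S against ZmUBQ always red leaves. It gave 0.089 and -0.36 in RUBY_3Q always green against always red and fully green against fully red, -0.045 in RUBY_fs against RUBY_3Q, 0.18 in RUBY_fs against 35S fully green and -0.15 in RUBY_3Q against RUBY always red, and ended the call in 35S against ZmUBQ fully red (-0.084). Centring on the other protein-coding targets, chosen after seeing the data, brought ddm1 against Col-0 past the threshold (0.70). It turned polv against Col-0 to 0.23, 35S fully green against fully red to -0.18 and fully red against always red to 0.19. Always green against always red turned to 0.41, green parts against fully green to -0.091 and dcl1234 to -0.51. In 35S against ZmUBQ it gave 0.26 in fully red, 0.24 in fully green and 0.61 in always red leaves. The last passed the threshold (limma, adjusted p = 0.0328, 25 of 61 targets higher). RUBY_3Q turned to 0.46 and -0.42, RUBY_fs against RUBY_3Q to -0.14 and RUBY_fs against 35S fully green to 0.43.

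The exact permutation test did not pass for ddm1 against polv (1.20, adjusted p = 0.333). Full-length tables gave 2.22 in dcl1234 (limma, adjusted p = 0.00370, 28 of 36 targets higher). They gave -0.056 in green parts against fully green and 0.18 in red parts against fully red. In 35S against ZmUBQ they gave 0.42 in always red, -0.53 in fully red and 0.99 in fully green leaves. Call and sign stayed, but the value moved to 2.58 in RUBY_3Q against RUBY always red. It moved to -2.66 in RUBY_3Q always green against always red and to 1.38 in 35S fully green against fully red. Libraries whose full-length table does not list AGO1 entered as 0. Under 35S these were 4 of 11 always red, 6 of 13 fully red, 5 of 13 red parts, 1 of 9 fully green and 1 of 2 always green libraries. Under ZmUBQ they were 2 of 4 always red, 3 of 9 fully red and 2 of 9 fully green libraries. All RUBY_3Q libraries listed the gene. Tables of all reads gave -0.175 points in pA share in polv against Col-0. Sense signal alone brought 35S against ZmUBQ fully green past the threshold (-0.72, limma adjusted p = 0.0426, 12 of 45 targets lower). Number set as a term did so for always green against always red (-0.58, limma adjusted p = 0.0495, 25 of 72 targets lower). Line means gave levels of 0.12 in fully red against always red and -0.90 in 35S against ZmUBQ fully red, neither past the threshold, and an antisense share of -0.105 points there. They gave pA shares of -14.8 in dcl1234, 15.2 in 35S against ZmUBQ always red and -22.7 in RUBY_fs against 35S fully green, each at the smallest p that 2 or 1 lines against 6 allow (0.0357, 0.0357 and 0.143), so the number of lines decided that they did not pass. Within set 1 the pA share differed by 2.26 points in green against red parts and 9.46 in fully green against fully red, the antisense share by -0.351 points in green parts against fully green, and the level by 0.23 in red parts against fully red; within set 2 the level differed by -0.024 in green parts against fully green. Relative to the other protein-coding targets the pA share differed by 9.01 points in 35S against ZmUBQ always red, which lost its call, by -16.0 in RUBY_3Q against RUBY always red, which gained one, by 0.762 in RUBY_3Q always green against always red and by 0.463 in RUBY_fs against RUBY_3Q. On that measure, chosen after seeing the data, both inequalities between promoters lost their call (8.10 and -7.12 points).

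Numbers shared between groups were not taken to pair the libraries, as no label says that a number marks a shared plant. Within a line, always red or always green leaves shared no number with leaves of other classes. The correlations cannot decide whether a number marks a plant. Correlations of same-numbered deviations were above 0.1 in 2, 1 and 1 of 3 inflorescence pairs, in 8 of 13, 5 of 9, 6 of 9 and 8 of 13 pairs of 35S groups, in 1 of 9 ZmUBQ pairs and in 0 of 2 RUBY_3Q pairs. With a replicate block, red parts differed from fully red leaves by 6.32 points in pA share (exact sign-flip test of pair differences, adjusted p = 0.0423). The block alone changed no other call. Replicate block and library median centring together gave levels of -1.12, 0.018 and -1.10 in the inflorescence comparisons, -0.062 in green against red parts, -0.47 in fully green against fully red and -0.36 in RUBY_3Q fully green against fully red.

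Leaving out 1 library at a time changed a call or a sign in these ranges, given for such comparisons. The level ran, in log2, from -0.79 to -0.11 in polv against Col-0 inflorescences, from -0.045 to 0.22 in 35S fully green against fully red, from -0.21 to 0.038 in 35S fully red against always red, from -1.58 to 0.063 in 35S always green against always red, from -0.16 to 0.099 in 35S red parts against fully red, from -0.82 to -0.58 in 35S against ZmUBQ fully green, from -0.096 to 0.38 in RUBY_fs against RUBY_3Q always green, from -0.095 to 0.11 in RUBY_3Q against RUBY always red. The pA share ran, in percentage points, from -5.56 to 1.23 in ddm1 against Col-0 inflorescences, from -1.94 to 3.58 in polv against Col-0 inflorescences, from -6.22 to 0.572 in ddm1 against polv inflorescences, from -1.09 to 1.06 in 35S green parts against red parts, from -7.52 to -5.44 in 35S fully red against always red, from -6.34 to -3.34 in ZmUBQ fully green against fully red, from 5.02 to 10.2 in ZmUBQ fully red against always red, from -0.302 to 1.72 in 35S against ZmUBQ fully red, from -5.09 to 2.20 in RUBY_3Q fully green against fully red, from -4.11 to 4.17 in RUBY_fs against RUBY_3Q always green, from -12.9 to -8.85 in RUBY_3Q against RUBY always red. The antisense share ran, in percentage points, from -0.317 to 0.143 in 35S always green against always red, from -0.11 to 0.347 in 35S green parts against fully green, from -0.0457 to 0.229 in dcl1234 against Col-0 always red, from -0.474 to 0.228 in ZmUBQ fully green against fully red, from -0.175 to 0.416 in 35S against ZmUBQ fully red, from -0.346 to 0.241 in 35S against ZmUBQ fully green.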

Other observations

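Libraries without a replicate entered no comparison. The poliv polv inflorescence library had a pA share of 39.4% (exact binomial 95% interval 37.7% to 41.1%) and an antisense share of 0.725%. The T1 libraries had AGO1 signals of 13072 in fully green, 4586 in always green, 8917 in the fully red and 8015 in the always red class. Their pA shares were 25.5% (24.9% to 26.2%) in fully green, 19.8% (19.1% to 20.5%) in always green, 17.2% (16.5% to 17.9%) in fully red and 24.0% (23.2% to 24.8%) in the always red leaves. The Col-0 green library had 38.1% (36.9% to 39.4%). These intervals cover counting error only.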
